A study of Mus musculus with 4 samples.

Results

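The genes described here are 9 AP-1 and immediate early response genes. The AP-1 subunit genes are Fos, Fosb, Fosl2, Jun, Junb and Jund, and the others are the related factor gene Atf3, Egr1 and Ier2. All 9 were chosen by name, as AP-1 subunits or as other genes that dissection or stretch can induce. Every probe set annotated to exactly 1 gene symbol from this list was taken. That gave 12 of the 45101 probe sets on the Affymetrix MOE430 array, for 9 of 18194 genes with a probe set of their own. The arrays held 3 samples of ureter, the muscular tube that carries urine from kidney to bladder, and 1 reference made from whole newborn mice. All were FVB/N mice at postnatal day 1 (Theiler stage 27), and all RNA went through 2 rounds of amplification. The ureters were male, unpooled and carried the transgene SMGA/EGFP, by its name a green fluorescent reporter of smooth muscle gamma-actin. They were freed from kidney and bladder by dissection and then snap frozen. The reference pooled males and females and had neither the transgene nor a dissection step, so tissue, handling, transgene, sex and pooling cannot be told apart. Whether the 3 ureter samples are 3 animals is not stated in the labels. If they are not, the p-values below reflect technical spread alone. In bulk tissue, fewer cells of a type and less RNA per cell cannot be told apart either.

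AP-1 is a dimer of a Fos and a Jun protein, or of 2 Jun proteins, joined through a leucine zipper and bound to DNA through an adjoining basic region. Immediate early genes are transcribed within minutes of growth factor, stretch or stress signals, without new protein synthesis, and their messages are short-lived. MAP kinases activate serum response factor with its Elk partners at CArG boxes, as well as CREB and ATF factors at cAMP response elements. Smooth muscle and urothelium, the lining epithelium of the ureter, are both stretched by urine, and the handling of fresh tissue is a well-known inducer of these genes.

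Promoters are shown for 4 members. Atf3, Fos and Jun had the largest differences from the reference at the brightest probe set, and Fosb and Fos had the widest spread between ureters. The spread of Fosb includes a ureter that read at or below background. The sequences are the 250 bases before the annotated start, 5′ to 3′ on the gene's strand, from RefSeq on GRCm38.p6, a build named for the sequences and not for the arrays. Capitals mark the motif matches a search found.
Fos, chr12:85473640-85473889, plus strand: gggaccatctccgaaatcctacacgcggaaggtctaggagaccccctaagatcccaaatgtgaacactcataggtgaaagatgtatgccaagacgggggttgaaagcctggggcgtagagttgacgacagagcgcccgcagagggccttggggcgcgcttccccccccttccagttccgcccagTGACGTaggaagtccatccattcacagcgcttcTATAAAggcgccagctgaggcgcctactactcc
Fosb, chr7:19310046-19310295, minus strand: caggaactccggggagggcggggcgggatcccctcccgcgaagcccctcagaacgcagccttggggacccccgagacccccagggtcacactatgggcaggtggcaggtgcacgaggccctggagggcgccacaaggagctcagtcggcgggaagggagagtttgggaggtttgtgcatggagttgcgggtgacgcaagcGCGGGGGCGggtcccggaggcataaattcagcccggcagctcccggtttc
Jun, chr4:95052223-95052472, minus strand: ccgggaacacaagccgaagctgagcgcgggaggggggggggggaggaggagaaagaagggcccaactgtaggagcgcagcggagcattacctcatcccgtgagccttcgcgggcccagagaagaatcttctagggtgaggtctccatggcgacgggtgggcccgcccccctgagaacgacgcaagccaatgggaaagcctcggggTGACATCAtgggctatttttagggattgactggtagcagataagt
Atf3, chr1:191183334-191183583, minus strand: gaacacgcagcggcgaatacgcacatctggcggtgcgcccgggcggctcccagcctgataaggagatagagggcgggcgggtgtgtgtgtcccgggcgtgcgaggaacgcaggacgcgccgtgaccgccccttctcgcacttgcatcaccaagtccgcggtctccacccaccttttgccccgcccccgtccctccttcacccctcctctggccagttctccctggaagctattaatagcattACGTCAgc
The search covered both strands from 250 bases before to 50 after the start, in the 7 members listed there (Fos, Fosb, Fosl2, Jun, Junb, Jund and Atf3) and in 32851 promoters of the same length. TGACGT, the first bases of the cAMP response element, lay at -66 to -61 in Fos and, on the opposite strand, at -8 to -3 in Atf3, so it was in 2 of 7 members and 7.51% of all promoters. The 8-base AP-1 or ATF site TGANNTCA was in 2 of 7 members, as TGACATCA in Jun (-45 to -38) and in Jund, against 14.1% of all. Jun held TGAGCTCA as well, at 3 to 10, past the bases printed. GCGNGGGCG, which the Egr proteins bind, was at -50 to -42 in Fosb and also in Fosl2, 2 of 7 against 5.55%. These 2 promoters were 68.3% (Fosb) and 64.7% (Fosl2) G or C, where the median of all promoters was 52.7%. The part of base composition in this share was not tested. TATAAA lay at -33 to -28 in Fos and at 1 to 6 in Junb, 2 of 7 against 13.6%. The match in Junb lies from the annotated start onward, not before it. The full cAMP response element TGACGTCA (1.79% of all), the 7-base AP-1 site TGANTCA (7.81%) and the CArG box (1.63%) were in 0 of 7 members. Sites farther from the start, and the promoters of Egr1 and Ier2, were not searched, so these counts of 0 hold for this window only. TGACGTCA contains TGACGT and also matches TGANNTCA, so these counts overlap. The motifs were chosen after the sequences had been seen, and a match is a description of letters, not a binding site.

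No member passed the test for a difference between ureter and whole newborn. Junb was too dim to be tested. Of the other 8 genes, 0 passed limma's adjusted p under 0.05, against 7.71% of 13721 genes (2.94% higher and 4.77% lower). Of their 10 tested probe sets 0 passed, against 6.17% of all. At the brightest probe set 1 gene, Atf3, had an unadjusted p under 0.05 in the limma fit, against 26.3% of all genes. Differences are log2 ureter minus reference of quantile-normalized values with the standard error (SE) of the fit. Their median over the 8 genes was 0.36, and over all genes 0.10. The difference lay above 0 in 6 of 8, against 55.1% of all genes. All 3 ureters lay above the reference in 4 of 8 (Fos, Jun, Egr1 and Atf3), against 39.9% of all genes, or 32.2% on the values as deposited, where the same 4 stood out. All 3 lay below it in 0 of 8, against 30.7%. A difference that did not pass is not shown to be 0, and the 95% intervals below give the sizes the data allow.

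As a check of the tissue label, 7 of 9 urothelium markers and 6 of 8 smooth muscle markers were higher in the ureters and 0 lower. Of 7 tested epidermis and 6 skeletal muscle markers, 5 each were lower. Of 9 tested leukocyte markers 3 were lower (Csf1r, Mpo and S100a8), against 4.77% of all genes, and 6 did not pass. Summed intensities of the 11 leukocyte markers on the array were 14983 to 20528 in the ureters and 62995 in the reference. Of the reference sum, Csf1r gave 25637 and S100a8 15764. The part of leukocytes in the values of the members was not tested. Median intensities ran from 154 to 259 in the ureters and were 332 in the reference. The highest of 27 control probe sets for bacterial transcripts read 57.2, 212 and 101.5 in ureter replicates 1, 2 and 3 and 188 in the reference, which serves here as the background level of each array.

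**Figure D1:**
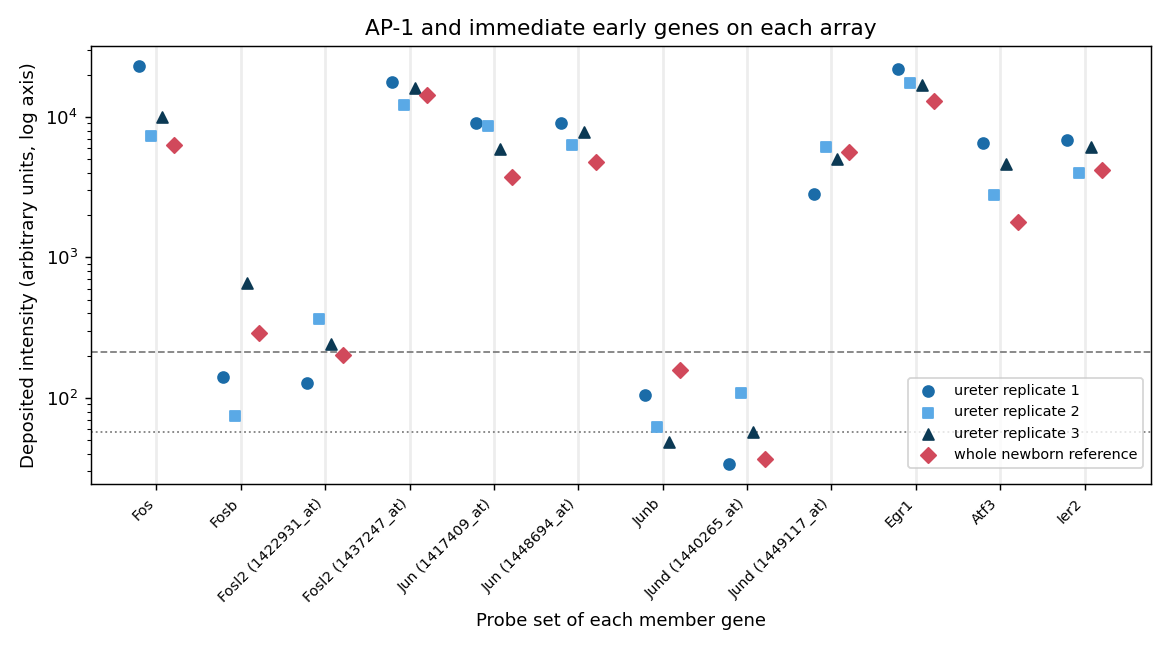
Deposited intensity (arbitrary units, log axis) of the 12 member probe sets on the 3 ureter arrays and the reference array, 1 point per array. The dotted and dashed lines are the lowest (57.2) and highest (212) background level of the 4 arrays; Junb and 1 probe set each of Jund and Fosl2, with Fosb, read 653 or less on every array, and the other 8 read 1796 or more on every array.

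Fos, the founding AP-1 subunit and a standard marker of recent stimulation, read 23089, 7312 and 9908 in ureter replicates 1, 2 and 3 and 6350 in the reference. All 3 ureters were above the reference, replicate 1 far above and replicate 2 close to it. The difference was 0.81 ± 0.61 (95% interval -0.68 to 2.30, adjusted p = 0.479). After normalization replicate 1 was 3.44-fold over the reference and the others 1.10-fold and 1.43-fold. Leaving out replicate 1 gave a difference of 0.32 and leaving out replicate 2 gave 1.14. Centring arrays on their medians, which moved the median of all genes from 0.10 to 0.68, gave 1.63.

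Fosb, a Fos relative known for accumulating under repeated stimulation, was dim. It read 141, 74.7 and 653 in the ureters and 289 in the reference, with replicate 2 at or below its array's background level and the other arrays above theirs. The ureters lay on both sides of the reference, and no fold against replicate 2 can be measured. The difference was 0.14 ± 1.20 (interval -2.79 to 3.06, adjusted p = 0.960), and -0.54 with the scaling as deposited. No direction can be given for Fosb.

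Fosl2 encodes Fra-2, a Fos protein without the strong activation domain of Fos. Its bright probe set (1437247_at) read 17610, 12056 and 16036 in the ureters and 14347 in the reference. The reference lay inside the ureters' range. The difference was -0.02 ± 0.27 with an interval of -0.68 to 0.64 (adjusted p = 0.976). The dim probe set (1422931_at) read 128, 364 and 241 against 202, which put all 3 ureters above the reference after normalization but only 2 as deposited. Its difference was 0.91 ± 0.59 (adjusted p = 0.410), so the pair of probe sets gave different sizes and neither passed.

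Jun, the main partner of Fos, was above the reference in every ureter at both of its probe sets. At 1448694_at it read 9007, 6356 and 7797 against 4750, a difference of 0.57 ± 0.30 (interval -0.15 to 1.29, adjusted p = 0.303). At 1417409_at it read 9096, 8646 and 5938 against 3742, a difference of 0.95 ± 0.35 (interval 0.10 to 1.80, adjusted p = 0.170), and its interval left out 0 only before adjustment. The ureters stayed within 1.42-fold and 1.53-fold of one another as deposited. With its probe sets averaged the difference was 0.76 (adjusted p = 0.122), the lowest adjusted p of Jun under any setting tried.

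Junb and Jund encode Jun proteins that activate less strongly than Jun at many AP-1 sites, and Junb is itself an early response gene. Junb read 106, 62.3 and 48.7 in the ureters and 159 in the reference, and only ureter replicate 1 was above its background level. It fell below the filter on dim probe sets and was not tested. As deposited every ureter lay below the reference, whereas after normalization replicate 1 lay above it, so no order can be given. Jund at its bright probe set (1449117_at) read 2827, 6100 and 5043 against 5606. The reference lay inside that range, with ureter replicate 1 lowest. The difference was -0.44 ± 0.49 (interval -1.63 to 0.75, adjusted p = 0.641). With median-centred arrays it was 0.39, where the median of all genes was 0.68. The other Jund probe set (1440265_at) read 34.1, 108 and 57.2 against 36.7, at or below background on all 4 arrays, and was not tested.

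Egr1, a zinc finger factor induced by serum and stretch, read 21990, 17538 and 16925 in the ureters and 12927 in the reference. Every ureter was above the reference, and the ureters lay within 1.30-fold of one another. The difference was 0.44 ± 0.24 with an interval of -0.15 to 1.02 (adjusted p = 0.335). With median-centred arrays, where the median of all genes was 0.68, it was 1.26. Ier2, a small nuclear protein gene of the early response, read 6797, 3999 and 6085 against 4171. Replicate 2 lay just below the reference and the others above it. The difference was 0.29 ± 0.37 (interval -0.60 to 1.19, adjusted p = 0.683) and rose to 1.12 with median-centred arrays.

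Atf3, a stress-induced partner of Jun proteins that often represses its targets, had the largest difference of the 8 genes tested. It read 6532, 2784 and 4637 in the ureters and 1796 in the reference. After normalization the ureters were 3.61-fold, 1.65-fold and 2.62-fold over the single reference. All 3 ureters also lay above it in 39.9% of all genes. The difference was 1.32 ± 0.49 with an interval of 0.13 to 2.50 (adjusted p = 0.171). Over all settings tried its adjusted p ran from 0.0606, without ureter replicate 2, to 0.394, without replicate 3, and its difference from 1.02 to 2.01.

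**Figure D2:**
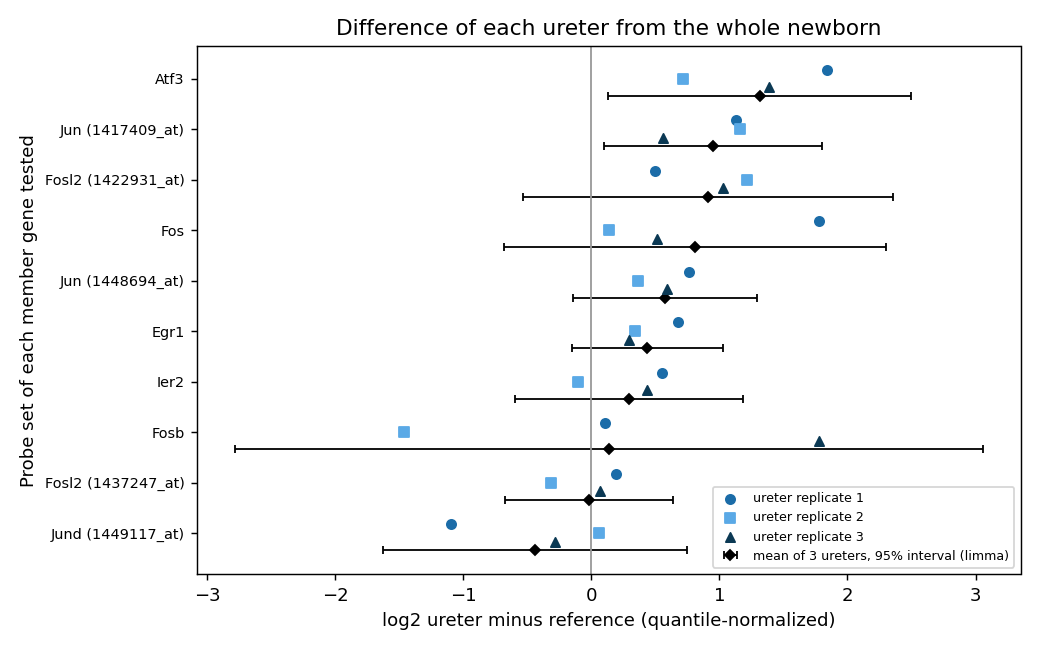
log2 difference of each ureter from the reference after quantile normalization for the 10 member probe sets tested, sorted by the mean of the 3 ureters, which is drawn with its 95% limma interval. The intervals of Atf3 (0.13 to 2.50) and of 1 Jun probe set (0.10 to 1.80) leave out 0 before adjustment, and no probe set passed after adjustment.

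The members varied between ureters to different degrees. Fosb (SD 1.62 on the log2 scale, n = 3), Fos (0.86), Jund (0.59) and Atf3 (0.56) had ureters over 2-fold apart after normalization, 4 of 8 against 24.3% of all genes. Ier2 (0.35), Fosl2 (0.26), Egr1 (0.21) and Jun (0.20) lay closer together. The SD of Fosb is not a measured size, since its replicate 2 was at or below background. Its replicates 1 and 3, both above background, read 141 and 653 and gave an SD of 1.18. The median SD of the 8 was 0.46, and that of all genes 0.32. Spread narrows as brightness increases, so each member was also set beside the genes of its own brightness class, 1 of 10 of equal size, a comparison added after the values were seen. A larger SD was found in 2.26% of such genes for Fos, 4.16% for Fosb, 7.87% for Jund and 11.7% for Atf3, and in 26.3% for Fosl2 up to 63.1% for Jun among the other 4. The share for Fosb rests on the same SD that is not a measured size.

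The spread of Fos rested on ureter replicate 1. Its SD was 0.26 between replicates 2 and 3, 0.90 between replicates 1 and 3 and 1.16 between replicates 1 and 2. The median SD of the 8 members was 0.27 without replicate 1, 0.30 without replicate 2 and 0.63 without replicate 3. That of all genes was 0.24, 0.24 and 0.30 in the same order.

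At the brightest probe set replicate 1 was the highest ureter for 6 of the 8 genes (Fos, Fosl2, Jun, Egr1, Atf3 and Ier2). Replicate 2 was the lowest for 6 (Fos, Fosb, Fosl2, Jun, Atf3 and Ier2). Replicate 1 was highest in 40% of all genes and replicate 2 lowest in 45.2%. Jund ran the other way, highest in replicate 2 and lowest in replicate 1. The other tested probe sets of Jun and Fosl2 gave another order. After normalization Jun at 1417409_at read 8620, 8795 and 5780 in replicates 1 to 3, highest in replicate 2 and lowest in replicate 3. As deposited it was highest in replicate 1. Fosl2 at its dim probe set (1422931_at) read 198, 334 and 293 after normalization, highest in replicate 2 and lowest in replicate 1. In the 20 other early transcription factor genes tested, replicate 1 was highest in 9 and replicate 2 lowest in 9, and in the 30 early effector and feedback genes in 12 and 11. In the 10 other AP-1 family bZIP genes tested, replicate 1 was highest in 1 and lowest in 6, and replicate 2 highest in 6 and lowest in 0. Over 107 tested genes of 6 early response and pathway lists, replicate 1 was highest in 32.7% and replicate 2 lowest in 41.1%. Other measures moved with the same arrays. The ratio of the 3′ to the 5′ probe set was 4.89, 2.88 and 3.56 in replicates 1, 2 and 3 for beta-actin and 16.6, 21.6 and 21.0 for Gapdh. Summed intensities in the same order were 193698, 142186 and 154740 for 9 urothelium markers, 135865, 191119 and 160766 for 8 smooth muscle markers and 2862, 12949 and 7510 for 8 kidney nephron markers, of which 0 were at background in all ureters. In replicate 1, however, the nephron markers Umod (32.9), Slc12a1 (29.4) and Slc34a1 (53.2) read below its background level of 57.2. Of its nephron sum of 2862, Aqp1 gave 2291. All these sums are of values as deposited. Of the smooth muscle sums Acta2 gave 60424, 89176 and 64726 in replicates 1, 2 and 3. After normalization its log2 values were 16.2, 16.23 and 16.25, so it hardly differed between ureters. Myh11 (14.5, 15.07 and 15.02) and Myocd (11.35, 13.68 and 12.42) were still lowest in replicate 1 on that scale. As deposited, 8 of the 9 urothelium markers were highest in replicate 1, all but Upk1a. Their part in the spread of the members was not tested.

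**Figure D3:**
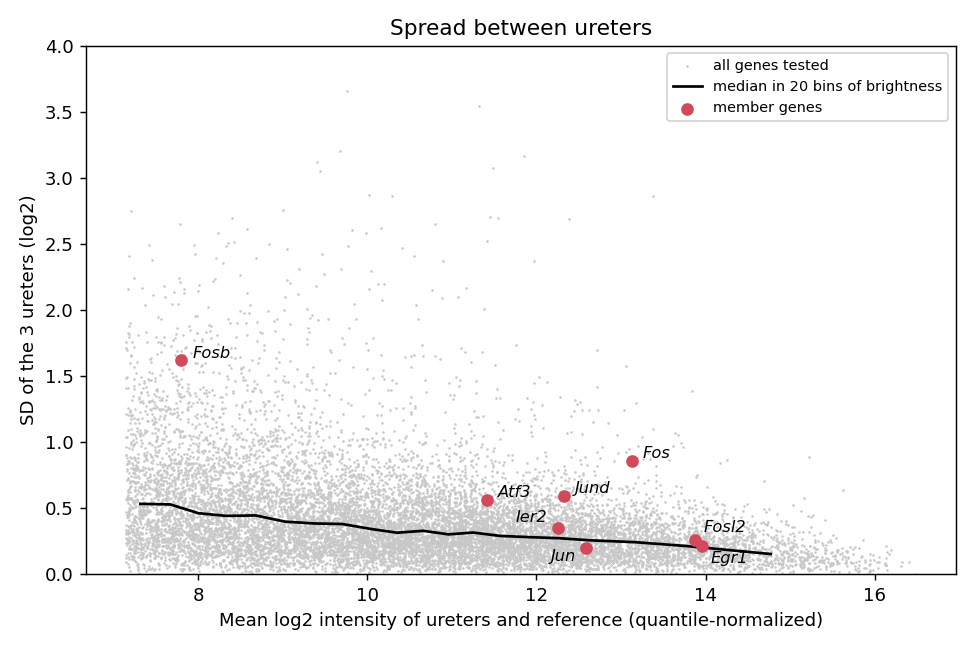
SD of the 3 ureters (log2) against mean log2 intensity for all 13721 genes tested, with the 8 member genes marked and the median drawn over 20 bins of brightness. Fos, Fosb, Jund and Atf3 lie above the median line at their brightness, and Egr1, Fosl2, Jun and Ier2 lie close to it.

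Profiles over the 4 arrays were compared by the root mean square distance between log2 values, each gene centred on its own mean, where 0 would be the same shape. Among the members Jun and Egr1 lay closest (0.12), followed by Fosl2 and Ier2 (0.15) and by Jun and Ier2 (0.17). Fos was nearer to Atf3 (0.36) than to any other member. Over all other genes the profiles nearest to Fos were those of Cdk5rap1 (0.038), Rps6kc1 (0.044), Neil3 (0.057) and Slc23a3 (0.069). All 4 shared the high replicate 1, for example 1320 in Cdk5rap1 against 456 and 537 in the other ureters, but read much dimmer than Fos. Nearest to Egr1 were Eme2 (0.020), Tor1aip2 (0.022), Mrpl37 (0.023) and Tfdp1 (0.028). Tor1aip2 read 22610, 18180 and 16953 against 13466 in the reference. With 4 arrays and 13721 genes, close shapes occur in many genes, and these distances are a description only.

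Around the members, 107 tested genes of 6 lists gave 6 calls, all lower in the ureters, or 5.61%, beside 7.71% of all genes. Their median difference was 0.05. Of the 10 other AP-1 family bZIP genes tested, among them Jdp2, Atf2, Atf4 and the small Maf genes, 0 passed and 0 had an unadjusted p under 0.05 in the limma fit, with a median of 0.24. Fosl1, which encodes Fra-1, was at background in all ureters.

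Of 20 other early transcription factor genes 1 passed as lower and 0 as higher, with a median of 0.10. In the limma fit 9 of the 20 had an unadjusted p under 0.05, against 26.3% of all genes. Among these Klf2, Klf6, Klf10, Myc and Srf were higher and Egr2, Egr3, Nr4a3 and Cebpb lower. The gene that passed was Egr3, a relative of Egr1 with a role in muscle spindle development. It read 28.7, 190 and 140 in the ureters and 4266 in the reference, with 2 of 3 ureters at or below background, and the fitted difference was -5.13 ± 0.78 (adjusted p = 0.0222). Its size rests on those values at background and is not a measured fold. Without ureter replicate 3 adjusted p was 0.0673, and with all its probe sets averaged the difference was -1.71 (adjusted p = 0.0996). Egr2, the family member needed for peripheral myelin, was looked up after Egr3 had been seen and read 49.2, 432 and 305 against 3777, with replicate 1 below background. It did not pass (adjusted p = 0.0563) and was lower when its probe sets were averaged (adjusted p = 0.0212).

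Of 30 early effector and feedback genes, such as the phosphatase genes Dusp1 and Dusp6 and the message-decay gene Zfp36, 0 passed limma's adjusted p and 5 had an unadjusted p under 0.05, with a median of -0.04. Of 15 heat shock and handling stress genes, 0 passed limma's adjusted p and 1 had an unadjusted p under 0.05, with a median of 0.05. Among 18 kinases and factors upstream of AP-1, 6 had an unadjusted p under 0.05 in the limma fit and 1 passed as lower. This was Mapk10, the neuronal JNK kinase gene, which read 159, 181 and 302 against 4087. Replicate 2 was at or below background, so the fitted difference of -4.10 ± 0.56 (adjusted p = 0.0174) is partly set by the background level. Its adjusted p was 0.0501 without ureter replicate 3, 0.0835 with its probe sets averaged and 0.164 at its other tested probe set, where 1 ureter was also at background. Tubb3, Nefl, Stmn2 and Map2 were lower as well among 6 neuron markers, with summed intensities of 2472 to 3041 in the ureters and 31218 in the reference, and their part in the Mapk10 difference was not tested.

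Of 14 tested AP-1 target genes 4 passed as lower and 0 as higher, with a median of -0.11. An unadjusted p under 0.05 in the limma fit was found for 5 of the 14. Mmp13, a collagenase gene of growing bone and cartilage, read 1.21, 25.0 and 2.15 in the ureters, below background in all, and 6617 in the reference, so it was at least 53.0-fold lower (adjusted p = 0.0130). That bound sets each ureter at its own background level. Mmp9, a gelatinase gene also known from bone, read 276, 665 and 305 against 4456, a difference of -3.37 ± 0.49 (adjusted p = 0.0199). Its other tested probe set gave -2.72 ± 0.58 and did not pass (limma adjusted p = 0.05004). The metallothionein genes Mt1 (-2.41 ± 0.31, adjusted p = 0.0153) and Mt2 (-1.52 ± 0.30, adjusted p = 0.0402), which bind zinc and are abundant in newborn liver, were the others. Mt1 lost its call with median-centred arrays (0.152), and Mt2 with median-centred arrays (0.531), as deposited (0.0586), with no filter (0.0505) and with no intensity trend (0.0941). Without ureter replicate 3 adjusted p was 0.0875 for Mmp9, 0.0776 for Mt1 and 0.173 for Mt2, and of the 6 named genes only Mmp13 passed (0.0392). Mmp13 in turn did not pass with an offset of 1 (0.0552). Plau, Ccnd1, Cd44 and Vim were among the 10 that did not pass.

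The calls in these lists changed when the fit was made on genes. With all probe sets of a gene averaged, and p-values adjusted over 10916 genes instead of 27022 probe sets, 12 of 92 genes passed, 6 lower and 6 higher, and the members gave 0 calls in 7 genes tested, with 2 at an unadjusted p under 0.05 in that limma fit. In that setting 12.3% of all genes passed. The 6 higher genes were Ier5, Klf6, Socs3, Myc, Klf2 and Dnaja1, with differences from 0.80 (Dnaja1) to 2.14 (Ier5). At their brightest probe sets the same genes had differences from 0.59 (Dnaja1) to 1.24 (Myc) and adjusted p from 0.0774 to 0.325. Klf2 and Myc had the same difference in both fits, so only the refit and its adjustment moved their calls. They were chosen after their values were seen.

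**Figure D4:**
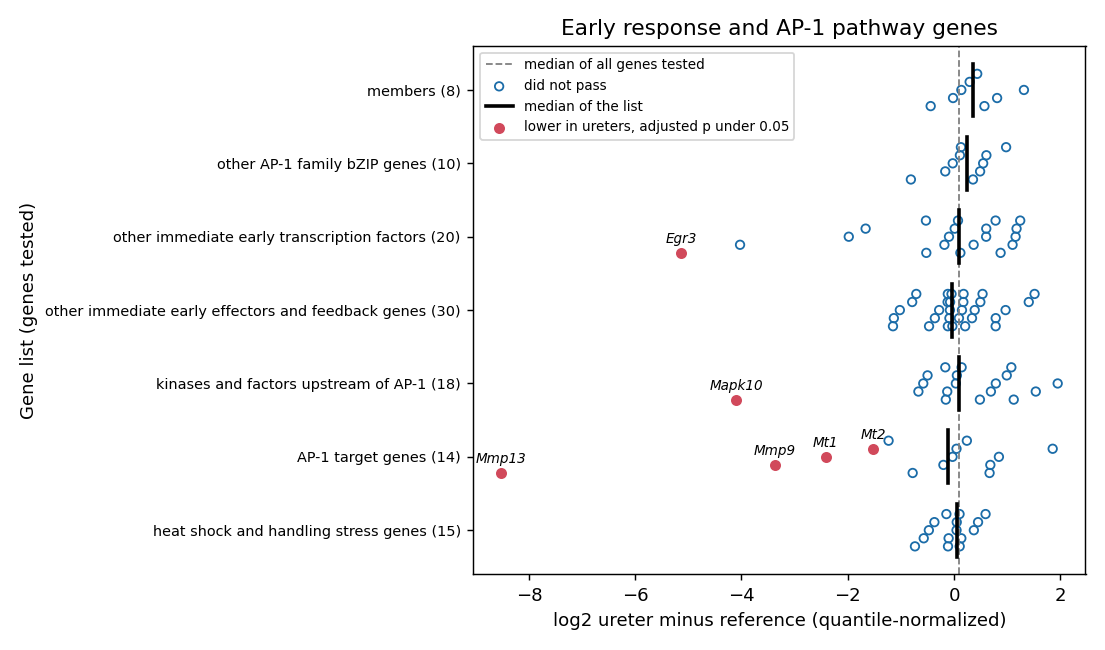
log2 difference between ureter and reference for the members and 6 lists of early response and AP-1 pathway genes, each gene at its brightest probe set, with list medians as bars and the median of all genes (0.10) as a dashed line. The 6 filled points, Egr3, Mapk10, Mmp13, Mmp9, Mt1 and Mt2, are the genes that passed, all lower in the ureters, and every list median lies between -0.11 and 0.36.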

How the data were processed

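Transcripts were measured on 3 ureter arrays and 1 array of a whole newborn reference. The deposited values are linear intensities, 1 per probe set and array. Per the submitters' processing notes they were made with GCOS, with no version, and the authors' values share a trimmed mean of 1500 on every array. The sources used here do not give a background correction. The arrays' median log2 values spanned 1.05, so intensities were quantile normalized and taken as log2(intensity + 12.23), where 12.23 is the 10th percentile of the deposited values. Such an offset understates differences of dim probe sets. After removal of 64 control probe sets and of the dimmest 40% by the average of both group means, 27022 were tested with limma 3.58.1 in R 4.3.3 (lmFit, eBayes with an intensity trend, two-sided, Benjamini-Hochberg over all probe sets, threshold 0.05). Its 2 residual degrees of freedom come from the ureters, and the single reference is assumed to vary like them. The 4 arrays limit the precision. A gene was represented by its brightest tested probe set, and 34958 probe sets had 1 symbol, 932 several and 9160 none.

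The members and gene lists were chosen with earlier results of these data known. Besides the members, the rule for named genes took up to 4 genes of each of 6 lists with the largest difference past the threshold and the 4 profiles nearest to Fos and to Egr1. Of 125 listed genes 116 were on the array and 107 were tested. The fit was tested on simulated data in which the reference was given the same spread as the ureters. The assumption that the reference varies like them was therefore not tested. Alternatives were the scaling as deposited, median-centred arrays, offsets of 1 and 50, no filter, no trend, averaged probe sets and each ureter left out.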

Additional observations from a re-analysis of the deposited data

How the results depend on the processing

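The count of member genes past the threshold was 0 in every setting tried, with 0 to 3 of them at an unadjusted p under 0.05 in limma. In 71 of 79 alternatives for single members the direction and the side of the threshold were as reported. The direction changed for Fosb (-0.54 as deposited; -0.68 to 0.96 with a ureter left out), for Fosl2 (0.068 as deposited, 0.80 with median-centred arrays, 0.45 with averaged probe sets; -0.13 to 0.13 with a ureter left out) and for Jund (0.39 with median-centred arrays, 0.43 with averaged probe sets), and none of these passed. Median centring put the median of all genes at 0.68, so Jund at 0.39 still lay below it. The averages of Fosl2 and Jund take in their dim probe sets, that of Jund at or below background on every array. The median SD of the members ran from 0.27 to 0.63 with a ureter left out.

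Over all probe sets 1667 passed (725 higher, 942 lower), against 1075 with no filter and 904 with no intensity trend, and 317 to 2135 with a ureter left out, the lowest without replicate 3. Higher calls made up 43.5% of these, and 33.5% as deposited (444 higher, 882 lower). The 6 lists gave 6 calls, 12 with averaged probe sets, and 1 to 8 with a ureter left out, the lowest again without replicate 3. The 6 genes named from them kept their direction in all 60 alternatives and their call in 47. The causes were not tested. Signal over background limits Junb, Fosb and 1 probe set each of Jund and Fosl2. No paired analysis was possible because the reference is a single array and the ureters' numbers follow only their order of deposit.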

Other observations

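Some early response genes outside the members differed between the 3 ureters in the same order as Fos, and others did not. All were picked after their values were seen. Btg2, an antiproliferative gene, read 7706, 2680 and 3151 in ureter replicates 1, 2 and 3 and 3402 in the reference, highest in replicate 1 and lowest in replicate 2 like Fos. Its SD of 0.77 was exceeded by 3.13% of genes in its brightness class. Ier3 (3094, 1493 and 1992), Zfp36 (3448, 1720 and 1902) and Dusp4 (2524, 1186 and 1625) ran the same way, with larger SDs in 19.5% to 21.9% of their classes. Replicate 1 was highest in 40% of all genes, and replicate 2 lowest in 45.2%. In the 30 early effector and feedback genes, from which these came, replicate 1 was highest in 12 and lowest in 12. Plau, the urokinase gene, read 309, 4561 and 780 in those replicates and 437 in the reference, highest where Fos was lowest. Its SD of 1.78 on the log2 scale was exceeded by 1.53% of genes in its brightness class, 1 of 10. Plk3, a stress-responsive kinase gene, read 51.0, 469.8 and 291.5, with replicate 1 below its background level. Nab2, a corepressor gene of the Egr proteins, read 275, 54.2 and 277, with replicate 2 below its own. Klf10 (SD 0.07), Myc (0.08) and Btg1 (0.05) were among the early response genes with close values in all 3 ureters. The near-identical heat shock genes, which probe sets can fail to tell apart, were Hspa1b (11040, 12159 and 14491, reference 8398) and Hspa1a (3109, 2856 and 5948, reference 2797). Both were highest in replicate 3, whereas Fos, Egr1 and Atf3 were highest in replicate 1.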
